A study of Arabidopsis thaliana with 4 samples.

Results

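The AP2-like and TEMPRANILLO (TEM) genes of *Arabidopsis thaliana* are floral repressors that act beside *FLOWERING LOCUS C* (*FLC*). They were selected by their gene identifiers as 8 of the 33854 genes in the expression tables, of which 6 are AP2-like (*AP2*, *TOE1*, *TOE2*, *TOE3*, *SMZ* and *SNZ*) and 2 are TEM genes (*TEM1* and *TEM2*). Poly-A RNA was sequenced from whole 12-day-old seedlings of *35S-COLDAIR* and of the wild type Col-0, with 2 libraries per genotype, numbered 1 and 2. The *35S-COLDAIR* plants carry the *COLDAIR* sequence from the first *FLC* intron behind the constitutive *CaMV 35S* promoter in the Col-0 background, and the paper describes the sequenced material as 1 transgenic line. Seedlings of both genotypes were raised on MS plates under long days (16 h of light and 8 h of darkness) at 22 °C. The labels do not say whether the libraries of a genotype came from separate cultures, so p-values measure only the spread between these libraries, which may be technical. All 8 genes were above a mean of 0.5 FPKM (sequenced fragments per gene, scaled to transcript length and library size) and were tested.

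The AP2-like proteins carry a pair of AP2 DNA-binding domains and delay the transition to flowering. Their mRNAs are targets of the microRNA miR172, which accumulates as a plant ages and lowers their output both by cleavage and by blocking translation. *AP2* is best known for sepal and petal identity and for restricting *AGAMOUS* in the flower. The TEM proteins belong to the RAV family, join an AP2 domain to a B3 domain, and repress the florigen gene *FT* and the gibberellin biosynthesis genes *GA3OX1* and *GA3OX2*. The level of a miR172 target in mRNA sequencing therefore reports its transcript and not the amount of its protein.

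The mature miR172 sequences and the sites in the AP2-like mRNAs are shown because they set the 2 families apart and are no part of the rule that chose the genes. All sequences are from the RefSeq annotation of TAIR10.1, written 5′ to 3′ as DNA, and the capitals in the microRNAs mark the seed (bases 2 to 8), which is the same in all 5. Of the 21 bases, 20 or more are identical to miR172a in each.
miR172a (chromosome 2, 11942918 to 11942938, minus strand): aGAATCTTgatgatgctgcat
miR172c (chromosome 3, 3599791 to 3599811, minus strand): aGAATCTTgatgatgctgcag
miR172e-3p (chromosome 5, 23988566 to 23988586, plus strand): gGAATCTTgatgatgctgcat
The sequence of miR172b-3p is that of miR172a, and the sequence of miR172d-3p is that of miR172c.

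Each AP2-like gene held a 21-nt site close to the perfect complement of miR172a. In the sites, capitals mark the bases that differ from the perfect complement.
*AP2* (chromosome 4, 17403019 to 17403039, plus strand): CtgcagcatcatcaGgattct
*TOE1* (chromosome 2, 12226233 to 12226253, minus strand): CAgcagcatcatcaGgattct
*TOE2* (chromosome 5, 24210889 to 24210909, plus strand): atgcagcatcatcaGgattct
*TOE3* (chromosome 5, 26802175 to 26802195, minus strand): TGgcagcatcatcaGgattct
*SMZ* (chromosome 3, 20373774 to 20373794, minus strand): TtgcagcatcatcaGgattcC
*SNZ* (chromosome 2, 16389066 to 16389086, minus strand): TtgTagcatcatcaGgattcC
The number of differences from the perfect complement was 1 in *TOE2*, 2 in *AP2*, 3 in *TOE1*, *TOE3* and *SMZ*, and 4 in *SNZ*. The 6 sites were identical at 17 of 21 positions, with a run of 16 bases shared by all. One difference was common to all 6, A15G counted from the 5′ end of the site, where the sites pair with base 7 of the microRNA as G and U. Every site lay in the coding sequence, within a single exon that was the last one in 5 of the genes and exon 9 of 10 in *TOE2*. Sites with at most 3 differences were found in 6 of 31342 genes with an annotated mRNA (0.0191%), and 5 of these were AP2-like genes. With at most 4 differences, which takes in *SNZ*, 39 genes (0.124%) held a site. The best match in *TEM1* and in *TEM2* had 8 differences. The site was present in all annotated mRNAs of *AP2*, *TOE1*, *TOE2* and *SNZ*, but in 1 of 4 of *TOE3* and 1 of 2 of *SMZ*. The FPKM values are per gene, so they do not separate mRNAs with the site from mRNAs without it.

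**Figure D1:**
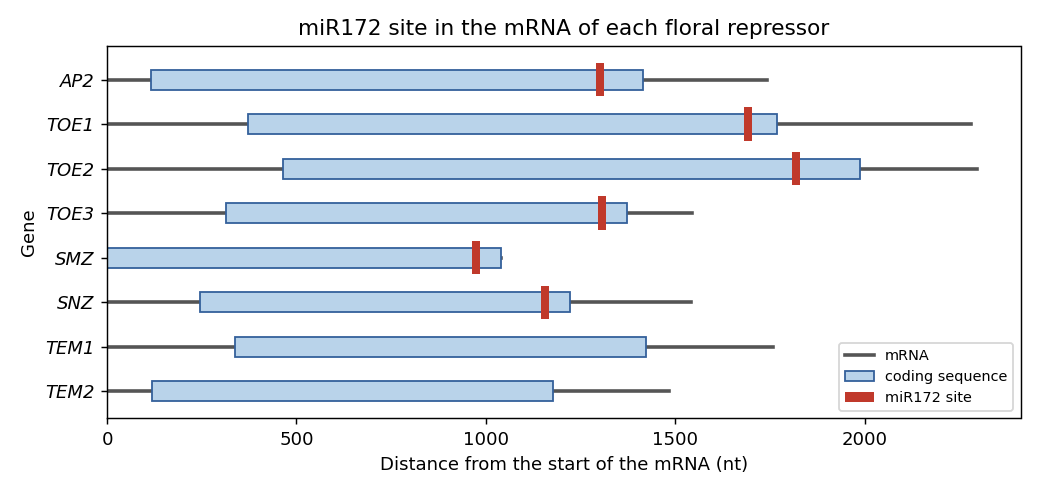
Position of the miR172 site in 1 annotated mRNA of each gene, the one with the longest coding sequence, drawn to scale from the start of the mRNA in nt. The line is the mRNA, the pale box the coding sequence and the red bar the 21-nt site with at most 4 differences. The site sits near the end of the coding sequence in the 6 AP2-like genes, and no such site is drawn for the TEM genes.

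*FLC*, the host gene of *COLDAIR*, was at 43.4 and 37.6 FPKM in *35S-COLDAIR*, against 2.05 and 1.13 FPKM in Col-0. The ratio of its mean levels was 25.4, and its adjusted p was 0.0835 with limma. The sums of FPKM per library lay between 928299 and 951940. The steps of 1 fragment in the lowest values corresponded to about 18400000 and 19900000 fragments in *35S-COLDAIR* and about 16900000 and 17500000 in Col-0. All 4 leaf and 4 root markers were expressed. The leaf markers summed to 51085 and 48960 FPKM in *35S-COLDAIR* and to 51092 and 47135 FPKM in Col-0, and the root markers to 1044 and 814 FPKM in *35S-COLDAIR* and 1005 and 962 FPKM in Col-0. Flower markers were low, at a sum of 3.01 and 4.47 FPKM in *35S-COLDAIR* and 6.48 and 3.46 FPKM in Col-0, with *AP3* at no more than 0.18 FPKM in any library. Seed and embryo markers summed to 14.8 and 15.0 FPKM in *35S-COLDAIR* and to 33.3 and 8.04 FPKM in Col-0, with *LEC1* listed at 0. In whole seedlings, fewer cells of a type and less RNA per cell cannot be told apart.

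The question was whether the 8 repressors changed in the *35S-COLDAIR* seedlings. The levels log2(FPKM + 1) were compared with limma over all 20142 tested genes with the Benjamini-Hochberg procedure at 0.05, and fold changes are on this scale, which understates the change of low genes. None of the 8 genes passed (0 of 8 in either direction), where 0.00993% of all tested genes passed. At an unadjusted p under 0.05 the count was also 0 of 8, against 2.59% of all tested genes. The adjusted p from limma was 0.9998 for each of the 8 genes, and the unadjusted values ranged from 0.0772 for *SMZ* to 0.909 for *TEM2*. The log2 fold changes lay between -0.20 and 0.40 with a median of 0.08, and the median over all tested genes was 0.00. An exact permutation test of 2 libraries against 2 has no two-sided p below 0.333.

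*TOE1* (AT2G28550, chromosome 2, 12225656 to 12228624, minus strand) was the most abundant AP2-like gene. The protein represses *FT* in the leaf and is a central target of miR172 in the juvenile phase. Its level was 61.1 and 44.6 FPKM in *35S-COLDAIR*, against 53.2 and 41.2 FPKM in Col-0. The genotypes overlapped, since replicate 1 of Col-0 was above replicate 2 of *35S-COLDAIR*. The log2 fold change was 0.15 (95% interval -0.39 to 0.70), with 0.20 within replicate 1 and 0.11 within replicate 2.

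*TOE2* (AT5G60120, chromosome 5, 24207689 to 24211743, plus strand), which acts together with *TOE1* in the same leaf pathway, had the closest replicates of the family. Its level was 23.4 and 23.5 FPKM in *35S-COLDAIR*, against 21.7 and 20.8 FPKM in Col-0, and the genotypes did not overlap. The difference was small, with a log2 fold change of 0.14 (standard error 0.0797, 95% interval -0.07 to 0.35) and a ratio of mean levels of 1.11. *TOE3* (AT5G67180, chromosome 5, 26801949 to 26804271, minus strand), a further miR172 target, was at 6.56 and 5.07 FPKM in *35S-COLDAIR*, against 6.46 and 5.94 FPKM in Col-0. Its genotypes overlapped, and the log2 fold change was -0.09 (95% interval -0.49 to 0.31).

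*SMZ* (SCHLAFMÜTZE) and *SNZ* (SCHNARCHZAPFEN) are a related pair named for the late flowering that their overexpression causes, and SMZ represses *FT* directly. *SMZ* (AT3G54990, chromosome 3, 20373718 to 20376522, minus strand) was the least abundant of the 8 genes and had the largest difference. Its level was 3.75 and 2.94 FPKM in *35S-COLDAIR*, against 1.97 and 2.60 FPKM in Col-0. Both *35S-COLDAIR* libraries were above both Col-0 libraries. The mean was 3.35 ± 0.568 FPKM in *35S-COLDAIR* and 2.29 ± 0.444 FPKM in Col-0 (SD, n = 2 each), a ratio of 1.46. The log2 fold change was 0.40 (standard error 0.177, 95% interval -0.07 to 0.87), but it came mostly from replicate 1, with 0.68 there and 0.13 within replicate 2. From the steps of the low values, *SMZ* rested on about 61 and 52 fragments in *35S-COLDAIR* and about 30 and 41 in Col-0, the fewest of the 8. In the annotation, 544 bp of *SMZ* overlap AT3G54980 on the opposite strand, which was at 3.92 and 5.23 FPKM in *35S-COLDAIR* and 4.78 and 4.98 FPKM in Col-0. Whether reads were assigned by strand is not given in the sources used here, so part of the *SMZ* value may belong to that gene. An overlap of 119 bp joins *TOE3* and AT5G67170 in the same way.

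*SNZ* (AT2G39250, chromosome 2, 16388691 to 16391176, minus strand) was more abundant than *SMZ* in every library. Its level was 25.2 and 14.5 FPKM in *35S-COLDAIR*, against 22.5 and 14.4 FPKM in Col-0. The libraries numbered 1 were high and those numbered 2 low in both genotypes, and the log2 fold change was 0.09 (95% interval -0.81 to 0.98). *AP2* (AT4G36920, chromosome 4, 17400610 to 17403469, plus strand) was at 12.2 and 12.8 FPKM in *35S-COLDAIR*, against 10.6 and 13.3 FPKM in Col-0. Both *35S-COLDAIR* values lay between the Col-0 values, and the log2 fold change was 0.07 (95% interval -0.29 to 0.42).

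The TEM genes were the most abundant of the 8. *TEM2* (AT1G68840, chromosome 1, 25880155 to 25882222, plus strand) was at 150 and 101 FPKM in *35S-COLDAIR*, against 155 and 103 FPKM in Col-0, above 94.6% of the tested genes by its mean over the 4 libraries. The genotypes overlapped and nearly coincided within each replicate, at a log2 fold change of -0.04 in replicate 1 and -0.02 in replicate 2. Over both it was -0.03 (95% interval -0.77 to 0.70). *TEM1* (AT1G25560, chromosome 1, 8981556 to 8983314, minus strand) was at 71.5 and 56.4 FPKM in *35S-COLDAIR*, against 86.3 and 61.6 FPKM in Col-0. It was lower in *35S-COLDAIR* within both replicates, with log2 fold changes of -0.27 and -0.12, but the genotypes overlapped. The log2 fold change was -0.20 (standard error 0.207, 95% interval -0.75 to 0.36). The coding sequences of *TEM1* and *TEM2* were identical at 80.1% of 1029 aligned bases, with a longest shared run of 32 nt. A run of that length was also shared by *TEM1* and *RAV1*, another RAV family gene, which were identical at 73.4% of aligned bases. The longest run shared by any pair of the AP2-like genes was 26 nt.

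**Figure D2:**
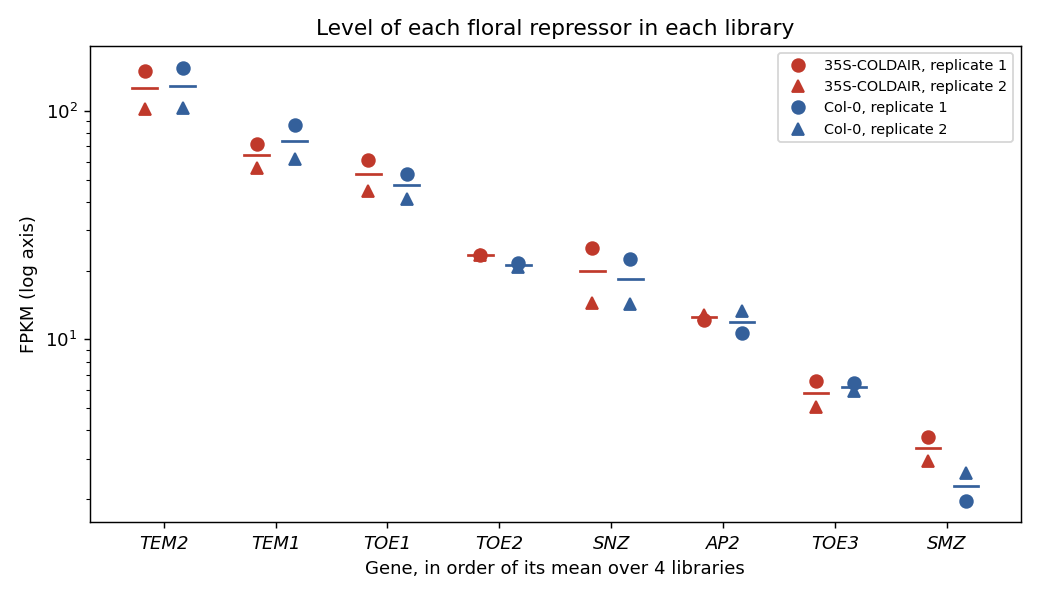
FPKM (log axis) of the 8 genes in each library, in order of their mean over the 4 libraries. Circles are replicate 1, triangles replicate 2 and lines the means of 2 libraries. In *TEM2*, *TEM1*, *TOE1*, *SNZ* and *TOE3* the triangles lie below the circles in both genotypes, and in *TOE2* and *SMZ* both *35S-COLDAIR* libraries lie above both Col-0 libraries.

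In FPKM, which is per length, the order of mean levels was *TEM2*, *TEM1*, *TOE1*, *TOE2*, *SNZ*, *AP2*, *TOE3* and *SMZ*. The ranges of *TEM1* and *TOE1* over the 4 libraries overlapped, but *TEM1* was above *TOE1* in each library. *TOE2* and *SNZ* changed places, with *SNZ* higher in both libraries numbered 1 and *TOE2* higher in both numbered 2, so their order did not hold beyond the spread. *SNZ* was above *AP2*, *TEM2* was above *TEM1*, *TOE1* above *TOE2*, *AP2* above *TOE3* and *TOE3* above *SMZ* without overlap of their libraries. The 6 AP2-like genes summed to 132 and 103 FPKM in *35S-COLDAIR*, against 116 and 98.2 FPKM in Col-0. The sum of the TEM genes was 221 and 158 FPKM in *35S-COLDAIR*, against 241 and 165 FPKM in Col-0. *TOE1* made up 44.7% ± 2.17 of the AP2-like sum in *35S-COLDAIR* and 43.8% ± 2.61 in Col-0 (SD, n = 2 each), within the spread of the libraries. The shares of *TOE2*, *SNZ* and *AP2* also overlapped between the genotypes. *TOE3* made up 4.96% and 4.90% in *35S-COLDAIR*, against 5.55% and 6.05% in Col-0, and *SMZ* 2.83% and 2.84% in *35S-COLDAIR*, against 1.69% and 2.65% in Col-0. These shares did not overlap, that of *TOE3* being lower and that of *SMZ* higher in *35S-COLDAIR*. *TEM2* made up 67.7% and 64.28% of the TEM sum in *35S-COLDAIR*, against 64.17% and 62.6% in Col-0. These were barely apart for their spread (means 66.0% ± 2.43 in *35S-COLDAIR* and 63.4% ± 1.10 in Col-0, SD, n = 2 each). How often such shares do not overlap in other gene sets was not computed.

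Of the 8 genes, 2 did not overlap between the genotypes, *TOE2* and *SMZ*, both higher in *35S-COLDAIR*, where 29.1% of all tested genes did not overlap. By the replicate number, 6 of 8 did not overlap, against 47.3% of all tested genes. Of these, *TOE1*, *TOE3*, *SNZ*, *TEM1* and *TEM2* were lower in the libraries numbered 2, against 24.9% of all tested genes in this direction, and *AP2* was higher. This pattern was read after the values had been seen, and it was not tested. The log2 difference of replicate 2 minus replicate 1 was -0.76 in *35S-COLDAIR* and -0.61 in Col-0 for *SNZ*. In *35S-COLDAIR* it was -0.56 for *TEM2*, -0.34 for *TEM1* and -0.44 for *TOE1*, and in Col-0 it was -0.58 for *TEM2*, -0.48 for *TEM1* and -0.36 for *TOE1*. In these 4 genes the replicates thus differed by more than the genotypes did, in both genotypes and in the same direction. The median size of the replicate difference, averaged over the genotypes, was 0.11 over all tested genes. Clock genes also differed by replicate, and 11 of 11 did not overlap, 4 lower and 7 higher in the libraries numbered 2. Among them, the morning genes *PRR9* and *LHY* had log2 differences of -1.31 and -1.04, averaged over the genotypes, and the evening gene *LUX* one of 0.68. Of the genes that respond to touch and handling, 6 of 7 did not overlap by replicate, 4 lower and 2 higher in the libraries numbered 2. The log2 difference, averaged over the genotypes, was -1.40 for *WRKY40*, a transcription factor gene, and 1.85 for *TCH4*, a cell wall enzyme gene. The part of time of day or handling in the replicate difference of the repressors was not tested. Same-numbered libraries also share a deposited table, so differences between replicates and between tables cannot be told apart.

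**Figure D3:**
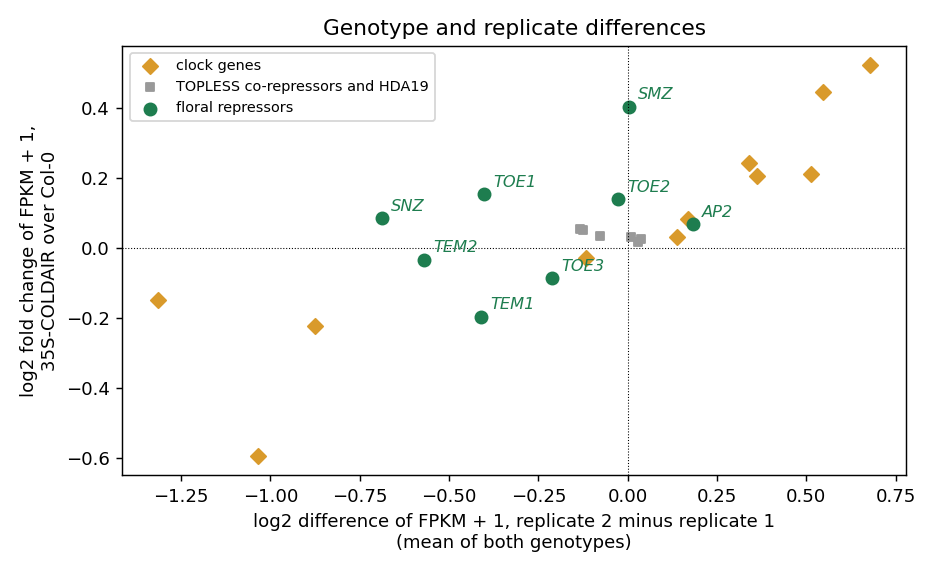
Log2 difference of FPKM + 1 between replicate 2 and replicate 1, averaged over the genotypes (horizontal axis), and log2 fold change of *35S-COLDAIR* over Col-0 (vertical axis), 1 point per gene. *SNZ*, *TEM2*, *TEM1* and *TOE1* lie farther from 0 along the replicate axis than along the genotype axis, and the co-repressor genes lie close to 0 on both. *SMZ* lies near 0 on the replicate axis only because its replicate differences had opposite signs, at -0.27 in *35S-COLDAIR* and 0.28 in Col-0.

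Within the replicate numbers, *TOE1*, *TOE2*, *SMZ* and *SNZ* were higher and *TEM1* and *TEM2* lower in *35S-COLDAIR* both times, while *AP2* and *TOE3* differed in sign between the replicates. Dropping any 1 library gave log2 fold changes from 0.11 to 0.17 for *TOE2* and from 0.27 to 0.54 for *SMZ*. Their sign could not turn, because both *35S-COLDAIR* libraries were above both Col-0 libraries in each of these genes. These values thus show only how far the size of the difference moved.

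**Figure D4:**
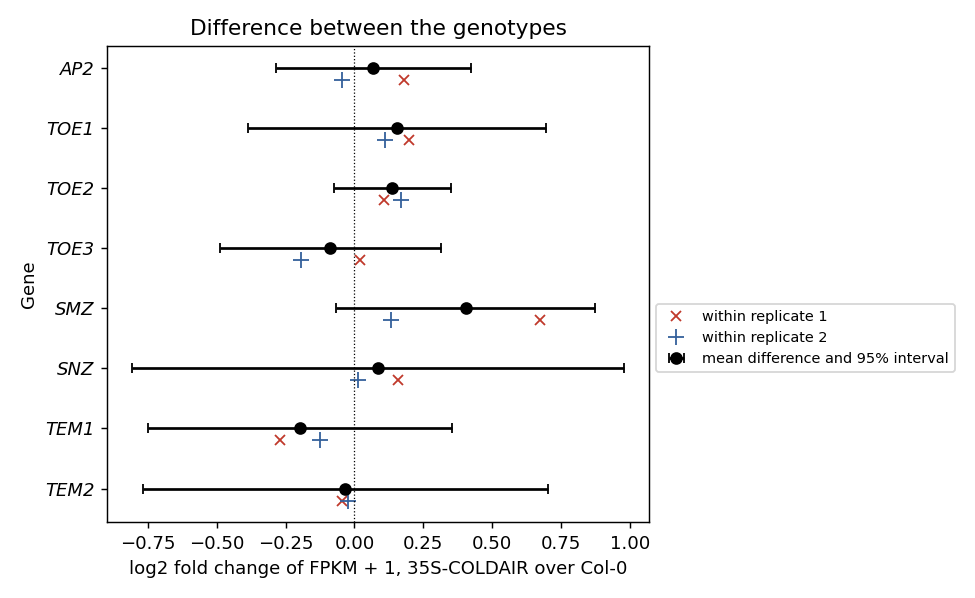
Log2 fold change of FPKM + 1, *35S-COLDAIR* over Col-0, for each gene (circles), with 95% intervals from limma. Crosses and plus signs are the values within replicate 1 and within replicate 2. All 8 intervals include 0, and that of *TOE2* is the narrowest.

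Around the 8 genes, lists of pathway genes were described in the same fit. The co-repressors that AP2-like proteins recruit, TOPLESS, its 4 relatives and the histone deacetylase HDA19, were all tested, and 0 of 6 passed in limma, 0 also at an unadjusted p under 0.05. Their log2 fold changes ranged from 0.02 to 0.05. *HDA19* alone did not overlap, at 64.89 and 66.83 FPKM in *35S-COLDAIR*, against 64.85 and 63.90 FPKM in Col-0, where 29.1% of all tested genes did not overlap. Of the 5 miR172 precursor genes, 4 were listed at 0 in every library. *MIR172a* was at 0.0509 and 0.231 FPKM in *35S-COLDAIR*, against 0.166 and 0.105 FPKM in Col-0. Poly-A libraries do not measure the mature microRNA, so its level is not known from these data.

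Of the 8 genes that the repressors are known to act on, 4 were tested and 0 passed in limma. At an unadjusted p under 0.05 the count was 1 of 4 (*SOC1*), against 2.59% of all tested genes. The flowering promoter *SOC1* had the largest log2 fold change of the 4, at -0.79 (adjusted p = 0.9998 from limma). It was at 36.1 and 42.4 FPKM in *35S-COLDAIR*, against 65.2 and 71.3 FPKM in Col-0. Its genotypes did not overlap, as in 29.1% of all tested genes. *FT*, the florigen gene on which the AP2-like and TEM proteins converge, was at 0.443 and 0.0664 FPKM in *35S-COLDAIR*, against 0.879 and 0.376 FPKM in Col-0. Its genotypes overlapped, but it was lower in *35S-COLDAIR* within both replicates, with log2 fold changes of -0.38 and -0.37, and the ratio of mean levels was 0.406. *TSF*, the closest relative of *FT*, was listed at 0 in every library. The TEM targets *GA3OX1* and *GA3OX2* overlapped between the genotypes, with log2 fold changes of 0.17 for *GA3OX1* and 0.01 for *GA3OX2*. *GA3OX1* was at 7.92 and 10.4 FPKM in *35S-COLDAIR*, against 6.75 and 9.26 FPKM in Col-0. By replicate, *GA3OX1* was higher in the libraries numbered 2, and *GA3OX2* and *FT* were lower there, as were the TEM genes. *AP1* was at 0.0439 and 0.120 FPKM in *35S-COLDAIR*, against 0.238 and 0.226 FPKM in Col-0, without overlap, and its ratio of mean levels was 0.352. *AP1* and *FT* were under the filter, and for both this ratio was lower than for *SOC1* (0.575). Their ratios rest on very low levels, down to 0.0439 FPKM for *AP1* (*35S-COLDAIR* replicate 1) and 0.0664 FPKM for *FT* (*35S-COLDAIR* replicate 2). The genotypes of *FT* also overlapped and those of *SOC1* did not, so the ratios do not rank these genes. In the paper, which used cuffdiff, *FT* and *AP1* were significantly lower in *35S-COLDAIR*. The paper names *FLC* as a repressor of both and proposes its increase as the likely cause. Which repressor lies behind these differences was not tested here. *AG* stayed below 0.3 FPKM in each library, and *SEP3* was at 2.35 and 3.18 FPKM in *35S-COLDAIR*, against 4.72 and 2.42 FPKM in Col-0.

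Among 6 genes upstream of the repressors or acting with them, *FLC* included, 0 passed in limma. At an unadjusted p under 0.05 the count was 2 of 6 (*FLC* and *SPL15*), against 2.59% of all tested genes. *SPL15*, a promoter of flowering in the age pathway, was at 1.77 and 1.83 FPKM in *35S-COLDAIR*, against 2.63 and 3.16 FPKM in Col-0 (log2 fold change -0.47, adjusted p = 0.9998 from limma). *SPL9*, which activates *MIR172* genes, had a log2 fold change of -0.29, and *MAF1*, the MADS-box partner that SMZ needs to repress *FT*, one of 0.09. Of the other RAV genes, 2 of 4 were tested and 0 passed in limma, with 1 (*EDF3*) at an unadjusted p under 0.05, and AT1G50680 and AT1G51120 were listed at 0. *RAV1* was at 46.2 and 40.7 FPKM in *35S-COLDAIR*, against 42.1 and 43.1 FPKM in Col-0. *EDF3* was at 3.17 and 4.003 FPKM in *35S-COLDAIR*, against 2.37 and 2.20 FPKM in Col-0, without overlap (log2 fold change 0.48, adjusted p = 0.9998 from limma). Of the AINTEGUMENTA-like genes, the other branch of the AP2 family, 11 of 12 were tested and 0 passed in limma, 0 also at an unadjusted p under 0.05, with a median log2 fold change of 0.13. *PLT3* had the largest difference without overlap, at 6.94 and 5.45 FPKM in *35S-COLDAIR*, against 4.78 and 4.81 FPKM in Col-0. Of the 11 clock genes and the 7 touch and handling genes, 0 passed in limma, 0 also at an unadjusted p under 0.05, and the median log2 fold change was 0.08 for the clock genes and -0.05 for the touch and handling genes. No clock gene was apart by genotype, and of the touch genes only *TCH2*, a calmodulin-like gene, was, at 76.6 and 66.1 FPKM in *35S-COLDAIR*, against 41.2 and 62.5 FPKM in Col-0. Of all tested genes, 29.1% were apart by genotype.

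MADS-domain proteins such as FLC bind the CArG box. The window from 250 bases before to 50 bases after the annotated gene start was searched on both strands for its strict form. This form is CCWWWWWWGG, where W is A or T. Other forms and sites outside the window were not searched. The strict CArG box was found once in the window of *TOE1* and in none of the windows of the other 7 genes. It was found in 3.05% of the windows of 27444 protein-coding genes. A match describes these letters only and shows no binding.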

How the data were processed

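The 4 libraries (2 of *35S-COLDAIR*, 2 of Col-0) were sequenced from poly-A RNA. The authors deposited FPKM per gene in 2 tables, each with the same-numbered library of both genotypes. The paper's methods name TopHat and cuffdiff on TAIR10, and the submitters' processing notes name STAR 2.5.2b and Cuffdiff. The gene annotation, strand setting and treatment of reads that map to several places are not given in the sources used here, nor whether the tables were normalized together. Columns were assigned by the genotype and number in their names, which run opposite to the numbers in the names of the tables.

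Levels were taken as log2(FPKM + 1), only genes averaging 0.5 FPKM or more over the 4 libraries were kept, and genotypes were compared with limma 3.58.1 in R 4.3.3 (variance trend, Benjamini-Hochberg adjustment over 20142 genes, threshold 0.05, two-sided, no block). Genes under the filter were taken from a fit over 23869 genes. The fit was tested on simulated data with independent noise and no replicate effect. That setting differs from these libraries, so it does not show how well the fit detects changes in them. Fragment numbers were estimated from the steps of low values in genes with 1 annotated mRNA, and are approximate. The genome and annotation were RefSeq TAIR10.1, and all 8 identifiers matched it. The members and gene lists were chosen with earlier results of these data known. Named are the 8 genes, all genes of the miR172, known-target and RAV lists, and of other lists those past the threshold or else the largest change without overlap; others were chosen after their values were seen. Alternatives were a pseudocount of 0.1 FPKM, quantile normalization, a filter at 1 FPKM or none, median centring, no variance trend, the replicate block, the ratio of mean FPKM, and each library left out.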

Additional observations from a re-analysis of the deposited data

How the results depend on the processing

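None of the 8 repressors passed the threshold under any of the 11 alternative fits, and the lowest adjusted p from limma was 0.577, for *TEM1* with the replicate block. Its interval with the block was -0.37 to -0.03. Those of the other repressors included 0, among them -0.01 to 0.32 for *TOE1*, -0.13 to 0.30 for *SNZ* and -0.17 to 0.10 for *TEM2*. All but that of *SMZ* were narrower than without the block. The filter settings, the variance trend and the replicate block leave the log2 fold change itself as it is. Among 96 alternative values of it, which include these fixed ones, 9 changed sign, all by leaving out 1 library. The range was -0.079 to 0.22 for *AP2* (below 0 without Col-0 replicate 1), -0.068 to 0.38 for *TOE1* (below 0 without *35S-COLDAIR* replicate 1, and -0.025 without Col-0 replicate 2), -0.25 to 0.071 for *TOE3* (above 0 without *35S-COLDAIR* replicate 2), -0.29 to 0.47 for *SNZ* (below 0 without *35S-COLDAIR* replicate 1, and -0.22 without Col-0 replicate 2), -0.44 to 0.044 for *TEM1* (above 0 without Col-0 replicate 1) and -0.32 to 0.26 for *TEM2* (above 0 without Col-0 replicate 1, and 0.25 without *35S-COLDAIR* replicate 2). With a library left out, the lone one of its genotype was assumed to vary like the others. Over all tested genes, the number higher in *35S-COLDAIR* was 1, against 2 without the variance trend, 3 with the replicate block and 0 to 5 with a library left out. The number lower was 1, against 2 with a pseudocount of 0.1 FPKM, 4 with the replicate block and 0 to 2 with a library left out. Between the genotypes, same-numbered libraries share their number and the table in which they were deposited. Their deviations had a correlation of 0.37 across genes, which are not independent, and 2 pairs do not establish a pairing. With the block, *FLC* had an adjusted p of 0.00349 in limma. At an unadjusted p under 0.05 the block gave 1 of the 8 repressors, 4 of 11 clock genes and 4 of 7 touch genes, against 7.98% of all tested genes, and 0 of these passed after adjustment. The interval of *FT* with the block was -0.64 to -0.11, with an adjusted p of 0.696 in limma. That of *SOC1* with the block was -0.95 to -0.62, with an adjusted p of 0.0867 in limma. Depth limits *SMZ* most, and the cause of its unequal replicates was not tested.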
